A study of Monodelphis domestica with 6 samples.

Results

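The genes described here are 10 genes of cartilage, measured by RNASeq in 2 neonatal skin fibroblast (neoSF) cultures and 4 induced pluripotent stem cell (monoiPSC) samples of *Monodelphis domestica*, a laboratory opossum. They are the transcription factors SOX9, SOX5 and SOX6, known as the SOX trio, and the matrix genes ACAN, COL9A1, COL9A2, COL9A3, COL11A2, MATN4 and COMP. The members were taken by gene symbol from the deposited tables of 35665 genes, and their levels in the neoSF and monoiPSC libraries were among the values that led to the choice. Their differences between neoSF and monoiPSC, and between the neoSF cultures of the strains, are therefore given as a description with no test. All 10 were among the 13072 genes tested, which are those whose normalized read count (NRC) reached 20 in every library of at least 1 of the cell types. An NRC is the read count of a gene multiplied by a factor that brings the libraries to a common scale.

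The study compared skin fibroblasts with the pluripotent cells made from them, to describe pluripotency in a marsupial. The neoSF cultures were grown from the skin of 10-day-old female pups of the inbred strains FD2M1 and LSD1 (here the name of a strain, not of the demethylase), were wild type and untreated, and gave 1 library each. The monoiPSCs were reprogrammed from such cultures of both strains, with OriP/EBNA episomal plasmids that carried human OCT4, SOX2, NANOG, KLF4, LIN28 and cMYC, and were sequenced at passage 15 and passage 25 for each strain. The study speaks of lines and of clones, and the labels do not say whether the passages of a strain are of the same clone, so the cells of a strain are called its line here and p-values over the 4 monoiPSC libraries measure only the spread between them. The neoSF libraries were sequenced in-house with short single-end reads and the monoiPSC libraries by a service with longer paired-end reads, so cell type and platform cannot be told apart.

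The neoSF libraries held 14278794 and 16982978 counts and the monoiPSC libraries 28684754 to 35564261. A count of 3, taken here as the floor of detection, corresponded to an NRC of 5.85 in FD2M1 neoSF, 4.75 in LSD1 neoSF and 1.55 to 1.88 in the monoiPSC libraries. Markers of the labelled cell types were high in the libraries that carry those labels. Of 10 fibroblast markers found, 9 were called lower in monoiPSC, with a summed NRC of 1484520 in FD2M1 neoSF, 1659450 in LSD1 neoSF and 4459 to 11677 in monoiPSC. All 4 pluripotency markers were called higher in monoiPSC, with summed NRCs of 13.7 and 7.92 in neoSF and 6876 to 10020 in monoiPSC.

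Cartilage is built by chondrocytes, which lay down a hydrated matrix around themselves. SOX9 is the transcription factor that specifies these cells and switches on their matrix genes. SOX5 and SOX6, members of the SOXD group, lack an activation domain of their own and act beside SOX9 on the enhancers of the same genes. Of the matrix genes, ACAN codes for aggrecan, the large chondroitin sulfate proteoglycan that holds water in the tissue. COL9A1, COL9A2 and COL9A3 code for the chains of collagen IX, which decorates the surface of cartilage fibrils, and COL11A2 codes for a chain of collagen XI, which lies inside them. MATN4 (matrilin-4) and COMP (cartilage oligomeric matrix protein, or thrombospondin-5) are adaptor proteins that link matrix components. Several of these genes also work outside cartilage. SOX9 acts in neural crest, hair follicle and gonad, and COMP is also a product of tendon and of dermal fibroblasts. RNA from a bulk sample does not separate fewer cells of a type from less RNA per cell, and this holds for every level below.

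Among the SOX trio, SOX9 (gene 100024115, MonDom5 chromosome 2) was highest in FD2M1 neoSF, with an NRC of 19063, against 1519 in LSD1 neoSF. The passage 15 monoiPSC NRCs were 2029 (FD2M1) and 2368 (LSD1), and those of passage 25 were 1832 and 2360. One neoSF culture thus stood above all monoiPSC libraries and the other below them, and the groups overlapped. The ratio of FD2M1 to LSD1 neoSF was 12.4 (95% interval for counting error only, 11.6 to 13.3). From neoSF to monoiPSC, SOX9 was lower by a log2 difference of -3.20 in FD2M1 and higher by 0.73 in LSD1.

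SOX6 (gene 100020415, chromosome 5) also had its highest NRC in FD2M1 neoSF, at 1550, with 293.5 in LSD1 neoSF. The monoiPSC NRCs were 105.4 and 161.1 at passage 15 and 143.1 and 124.0 at passage 25, in the order FD2M1 and LSD1 that is kept below. Both neoSF libraries lay above the 4 monoiPSC libraries. FD2M1 neoSF was 5.24-fold above LSD1 neoSF (counting interval 4.46 to 6.18), and the log2 difference of monoiPSC from neoSF was -3.55 in FD2M1 and -0.96 in LSD1.

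SOX5 (gene 100009975, chromosome 8) had the opposite order. Its NRC was 37.1 in FD2M1 neoSF and 16.9 in LSD1 neoSF, which rest on 19.0 and 10.7 counts. In monoiPSC it was 484.7 and 270.2 at passage 15 and 258.3 and 119.2 at passage 25, so that all 4 monoiPSC libraries lay above both neoSF libraries. The neoSF ratio of 2.11 had a counting interval of 0.953 to 4.90, which includes equal levels. The log2 difference of monoiPSC from neoSF was 3.36 in FD2M1 and 3.45 in LSD1. SOX5 and SOX6, which commonly act together beside SOX9, therefore lay on opposite sides in these cells.

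**Figure D1:**
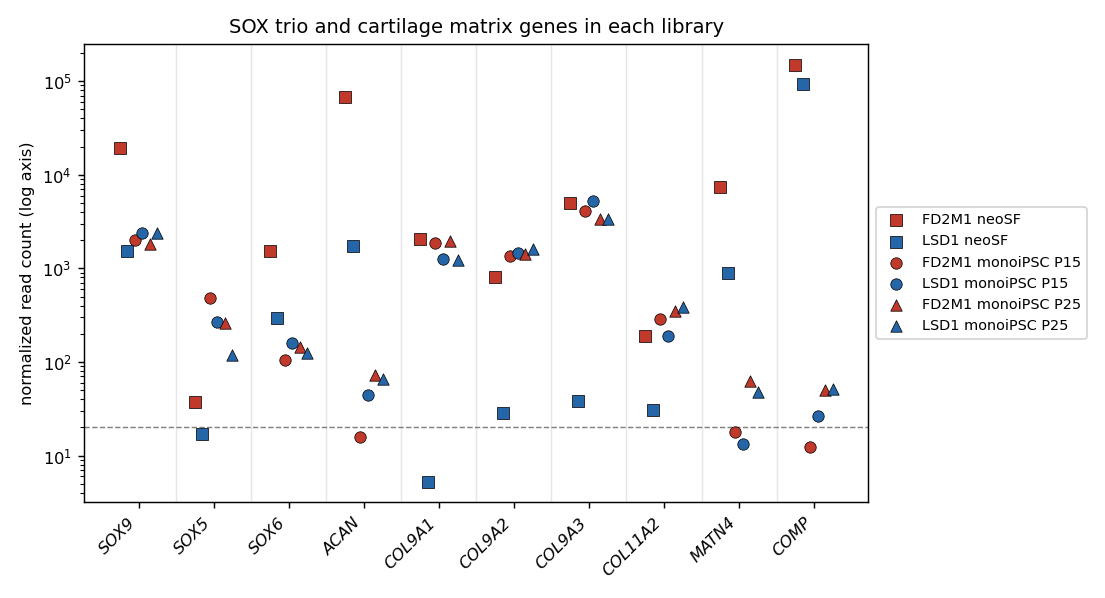
Normalized read count (NRC, log axis) of the 10 genes in each of the 6 libraries. Squares are neoSF, circles monoiPSC at passage 15 and triangles monoiPSC at passage 25, red is FD2M1 and blue LSD1, and the dashed line marks an NRC of 20. FD2M1 neoSF is the highest library for SOX9, SOX6, ACAN, COL9A1, MATN4 and COMP, and LSD1 neoSF falls far below the other libraries for the collagen IX genes, to 5.28 for COL9A1.

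The proteoglycan gene ACAN (gene 100016782, chromosome 1) reached an NRC of 67335 in FD2M1 neoSF and 1712 in LSD1 neoSF. It was 15.9 and 44.2 in monoiPSC at passage 15 and 73.4 and 66.2 at passage 25. Every neoSF value was above every monoiPSC value, and the neoSF cultures differed 39.0-fold (counting interval 36.7 to 41.4). In LSD1 neoSF the aggrecan transcript, although far below FD2M1 neoSF, was still 23.3-fold above the highest monoiPSC library. The log2 difference of monoiPSC from neoSF was -10.85 in FD2M1 and -4.90 in LSD1.

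The collagen IX genes had another pattern, with similar levels in FD2M1 neoSF and in monoiPSC and almost none in LSD1 neoSF. The NRC of COL9A1 (gene 100020680, chromosome 2) was 2079 in FD2M1 neoSF and 5.28 in LSD1 neoSF, where 3.33 counts were assigned to it. In monoiPSC it was 1856 and 1244 at passage 15 and 1965 and 1237 at passage 25. LSD1 neoSF was at the floor while the other 5 libraries lay within a narrow range. The neoSF ratio, on counts rounded to whole numbers, was 434 (counting interval 148 to 2106, wide because of the few counts in LSD1 neoSF). It was 394 to 423 over the alternatives. Of the 13072 tested genes, 1 had a higher ratio.

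COL9A3 (gene 100025683, chromosome 1) was likewise far lower in LSD1 neoSF than in the other 5 libraries, with an NRC of 4992 in FD2M1 neoSF, 38.3 in LSD1 neoSF, 4101 and 5192 in monoiPSC at passage 15 and 3363 and 3336 at passage 25. Its neoSF ratio was 130 (counting interval 87.3 to 203). COL9A2 (gene 100032118, chromosome 4) had NRCs of 817.3 and 28.8 in FD2M1 and LSD1 neoSF, and of 1359, 1469, 1431 and 1607 in the monoiPSC libraries, with a neoSF ratio of 28.4 (counting interval 17.8 to 48.4). For COL9A2 the monoiPSC libraries lay above both neoSF libraries, whereas for COL9A1 and COL9A3 the FD2M1 neoSF value lay within or just above the monoiPSC range. The log2 difference of monoiPSC from neoSF in FD2M1 was -0.02 for COL9A1, 0.87 for COL9A2 and -0.32 for COL9A3, and in LSD1 it was 8.12, 5.84 and 6.86.

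Collagen IX is assembled from one chain of each gene, and the balance of the reads varied between libraries. The count of COL9A2 divided by that of COL9A1 was 0.393 in FD2M1 neoSF and 5.46 in LSD1 neoSF, where both counts were low. It was 0.732 and 0.728 in the FD2M1 monoiPSC libraries at passages 15 and 25, and 1.18 and 1.30 in the LSD1 monoiPSC libraries. The count of COL9A3 divided by that of COL9A2 did not separate the lines, with 3.02 and 2.35 in FD2M1 and 3.54 and 2.08 in LSD1 monoiPSC. The difference between lines in the first ratio goes with COL9A1, which did not pass the test between lines given below. These ratios are not corrected for transcript length, so only their change between libraries can be read.

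COL11A2 (gene 100026968, chromosome 2) had a smaller contrast of the same kind. The NRC was 189.3 in FD2M1 neoSF, 30.8 in LSD1 neoSF, 286.8 and 187.6 in monoiPSC at passage 15 and 347.0 and 390.5 at passage 25. LSD1 neoSF was again the lowest library, and the FD2M1 neoSF value was close to the lowest monoiPSC value. The neoSF ratio was 6.23 (counting interval 3.78 to 10.8), and the log2 difference of monoiPSC from neoSF was 0.84 in FD2M1 and 3.26 in LSD1.

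The adaptor genes MATN4 and COMP were neoSF genes in both strains. MATN4 (gene 100029948, chromosome 1) had an NRC of 7468 in FD2M1 neoSF and 903.1 in LSD1 neoSF, and of 18.1, 13.2, 62.6 and 47.9 in monoiPSC. Both neoSF values lay above all monoiPSC values, and the neoSF ratio was 8.20 (counting interval 7.50 to 8.97). COMP (gene 100016186, chromosome 3) reached an NRC of 149235 in FD2M1 neoSF and 93214 in LSD1 neoSF, and 12.3, 26.3, 50.2 and 51.1 in monoiPSC. COMP took 0.536% of all counts in FD2M1 neoSF and 0.347% in LSD1 neoSF. Its ratio between the neoSF libraries, 1.59 (counting interval 1.57 to 1.60), was the smallest of the 10 genes, and its log2 difference of monoiPSC from neoSF was -12.45 in FD2M1 and -11.23 in LSD1.

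**Figure D2:**
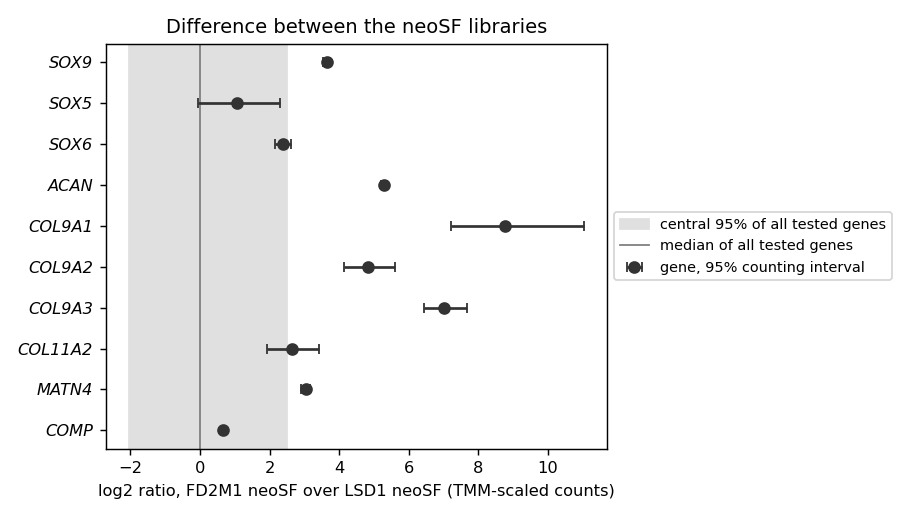
Log2 ratio of FD2M1 neoSF to LSD1 neoSF for the 10 genes (points) with 95% intervals for counting error only, from 1 library a strain. The grey band holds the central 95% of the 13072 tested genes, from -2.05 to 2.50, and the collagen IX genes, ACAN, SOX9, MATN4 and COL11A2 lie to its right.

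Across the 10 genes, the FD2M1 neoSF library was at least 2-fold above the LSD1 neoSF library for 9 (background, 8.30% of the 13072 tested genes) and at least 10-fold above it for 5 (background, 1.60%). The median log2 ratio was 3.34 for the members and 0.0066 for all tested genes, of which 95% lay between -2.05 and 2.50. FD2M1 neoSF was the highest of the 6 libraries for 6 members (background 24.2%), and LSD1 neoSF was the lowest for 6 members (background 24.3%). The members were chosen with these values known, so nothing is read from the counts. With 1 library for each strain, a difference between strains and a difference between cultures cannot be told apart.

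The edgeR fit held no strain term. It models counts and does not average logs, so its fold changes are not means of the log2 changes within the strains. By this fit monoiPSC differed from neoSF by a log2 fold change of -2.16 ± 0.73 (SE) for SOX9, 3.49 ± 0.68 for SOX5 and -2.68 ± 0.54 for SOX6. The matrix genes had -9.34 ± 1.33 for ACAN, -6.79 ± 0.91 for MATN4 and -11.66 ± 0.63 for COMP. The values were 0.70 ± 1.27 for COL9A1, 1.90 ± 0.96 for COL9A2, 0.77 ± 1.23 for COL9A3 and 1.58 ± 0.67 for COL11A2. These pooled values hide the unequal neoSF cultures. Calls of other genes use the thresholds of the study, an adjusted p of at most 0.05 and a change of at least 2-fold. No call between neoSF and monoiPSC is given for the members. The groups did not overlap for 6 members, 4 with both neoSF libraries above (background 37.1%) and 2 with all monoiPSC libraries above (background 36.1%). With strain as a replicate block SOX9 was not called and COL11A2 was, which gave 4 members lower (background 21.6%) and 2 higher (background 24.4%). The block fit gave a log2 fold change of -1.72 for SOX9 and 1.74 for COL9A1. SOX9 was also not called without any 1 of the monoiPSC libraries. Without FD2M1 neoSF its fold change turned to 0.59, 4 members were lower (background 20.4%) and 5 higher (background 23.7%), namely SOX5, the collagen IX genes and COL11A2.

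The change of each monoiPSC library from the neoSF library of its own strain shows where the lines parted. For SOX9 and COL9A3 both libraries of the FD2M1 line lay below their neoSF culture and both of the LSD1 line above theirs. For COL9A1 the FD2M1 libraries lay at -0.054 and 0.015 from their culture, and the LSD1 libraries at 8.12 and 8.11. For SOX5, SOX6, COL9A2, COL11A2, ACAN, MATN4 and COMP the 4 libraries differed from their neoSF culture in the same direction. The log2 change in LSD1 minus that in FD2M1 was 3.93 ± 0.29 (SE, edgeR) for SOX9, 8.11 ± 0.40 for COL9A1, 4.96 ± 0.34 for COL9A2, 7.21 ± 0.55 for COL9A3 and 5.60 ± 1.10 for ACAN. It was 2.59 ± 0.48 for SOX6, 2.50 ± 0.77 for COL11A2, 2.65 ± 1.16 for MATN4, 0.99 ± 1.00 for COMP and 0.14 ± 1.05 for SOX5. Over all 13072 tested genes edgeR called this term for 11 (0.0841%) and DESeq2 for 2.33%. No call of it is given for the members. For COL9A1, with 3.33 counts in LSD1 neoSF, the DESeq2 SE of the term was larger, at 0.92. The term is largely the neoSF difference already described and is no separate result.

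**Figure D3:**
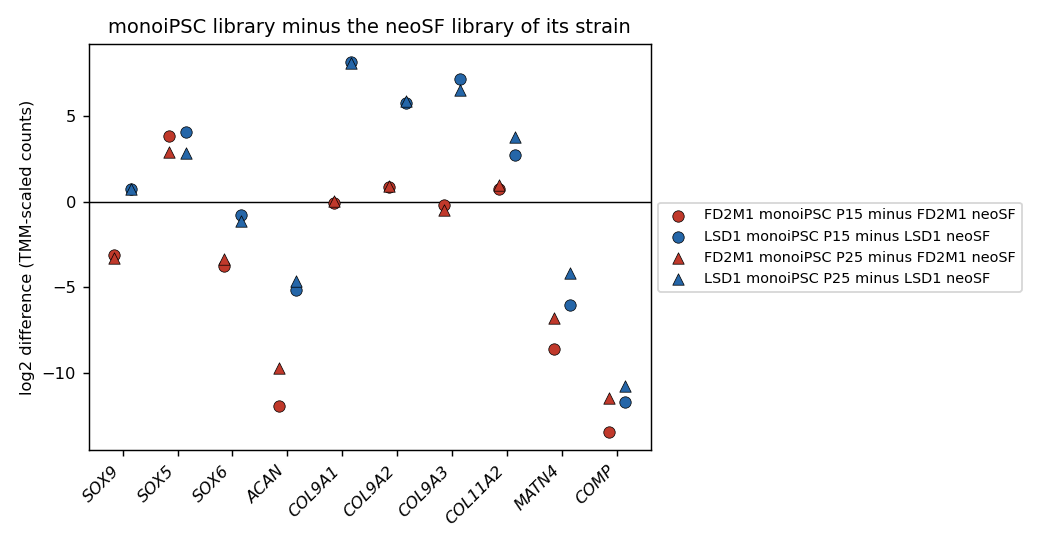
Log2 difference of each monoiPSC library from the neoSF library of the same strain, on TMM-scaled counts (red FD2M1, blue LSD1, circles passage 15, triangles passage 25, black line no difference). For COL9A1 the FD2M1 points sit on the line and the LSD1 points near 8, whereas for SOX5 the strains overlap.

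Differences among the 4 monoiPSC libraries were tested with edgeR, with the other factor as covariate. The members' levels in these libraries were known when the genes were chosen. The tests ran across the 12252 genes that reached an NRC of 20 in each of the 4. Of the members, 7 passed this filter, and ACAN, MATN4 and COMP did not. No gene was called between passages (background 0.00%, with 1145 genes at an unadjusted p under 0.05, and 115 genes, 0.939%, called by DESeq2) or between lines (background 0.00%, with 1736 genes at an unadjusted p under 0.05, and 192, 1.57%, called by DESeq2). None of the 7 members passed the adjusted threshold in either comparison by edgeR or DESeq2.

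SOX5 had the widest spread of the 7. Its NRC at passage 25 was lower than at passage 15 in both lines, from 484.7 to 258.3 in FD2M1 and from 270.2 to 119.2 in LSD1, a log2 fold change of -1.06 ± 0.25 (SE) with an edgeR adjusted p of 0.321 (0.137 to 0.926 over the alternatives). Its level was also lower in the LSD1 than in the FD2M1 line at both passages, by -0.97 ± 0.25 (adjusted p = 0.222, and 0.139 to 0.571 over the alternatives). Neither difference passed the correction.

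COL9A1 was lower in the LSD1 line at both passages, with a log2 fold change of -0.62 ± 0.15 and an edgeR adjusted p of 0.219 (0.150 to 0.472 over the alternatives), and differed between passages by 0.02 ± 0.15. COL9A2 and COL9A3, the other chains, differed between lines by 0.14 ± 0.15 and 0.17 ± 0.16. Between passages COL9A3 had a log2 fold change of -0.48 ± 0.16 (adjusted p = 0.495), COL9A2 one of 0.09 ± 0.15, and COL11A2 one of 0.65 ± 0.28 (adjusted p = 0.547). SOX9 and SOX6 differed between passages by -0.09 ± 0.15 and 0.02 ± 0.35, and between lines by 0.30 ± 0.15 and 0.21 ± 0.35. SOX9 held an NRC of 1832 to 2368 in the 4 libraries, a coefficient of variation of 12.2%, and COL9A2 varied least, with 7.10%.

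ACAN, MATN4 and COMP, the members with low monoiPSC levels, were each higher at passage 25 than at passage 15 in both lines. Without the expression filter the log2 fold change was 1.35 ± 0.55 for ACAN, 1.82 ± 0.48 for MATN4 and 1.45 ± 0.52 for COMP, and the edgeR adjusted p was 0.618, 0.437 and 0.585. The differences did not pass the correction, and at passage 15 the FD2M1 line was under an NRC of 20 for all 3 genes. The summed NRC of the fibroblast markers was 11677 and 4459 at passage 15 and 8481 and 5060 at passage 25 in the same order, so the fibroblast sum was lower at passage 25 in FD2M1 and higher in LSD1. Its part in these low levels was not tested.

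**Figure D4:**
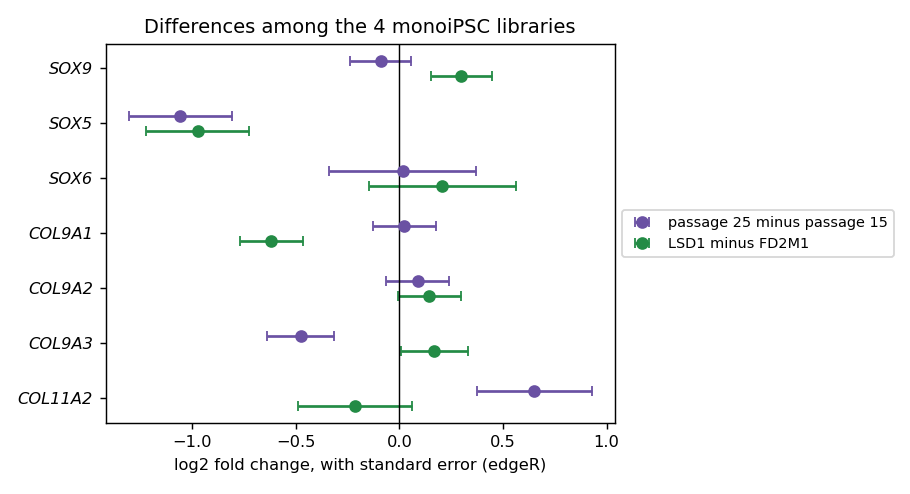
Log2 fold change with standard error (edgeR) among the 4 monoiPSC libraries for the 7 members expressed in all of them, for passage 25 minus passage 15 (purple) and LSD1 minus FD2M1 (green). SOX5 lies furthest from the line of no difference in both, and no bar passed an adjusted p of 0.05.

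Other genes of the cartilage programme were read from the same fit, as lists that hold none of the 10 members. Of 85 genes listed, 75 were found and 58 tested. Of these, 39 were called lower in monoiPSC and 6 higher, against 21.6% and 24.3% of all tested genes, with a median log2 fold change of -1.92 (0.08 over all tested genes). The same shares are the background for the calls of this fit in each list below. The lists were chosen with earlier results of these data known. COL2A1, the main fibrillar collagen of cartilage, and SOX10 were not analysed here.

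Among 8 other cartilage matrix genes tested, 4 were called lower and none higher. COL11A1, the partner chain of COL11A2 in collagen XI, fell by 3.42 on the log2 scale (SE 0.23, edgeR adjusted p = 3.35e-05), with NRCs of 58950.5 and 49855 in neoSF and 3592 to 5736 in monoiPSC. Unlike COL11A2, it was nearly equal in the neoSF cultures, with a ratio of 1.17. COL10A1, a collagen of hypertrophic chondrocytes, fell from 298.8 and 115.2 to between 0 and 3.77 (adjusted p = 0.000415). EPYC (epiphycan), a small proteoglycan of growth cartilage, had NRCs of 2587 and 216.3 in neoSF and 0 to 3.09 in monoiPSC (adjusted p = 0.00032), an 11.8-fold neoSF ratio. HAPLN1, the link protein that fastens aggrecan to hyaluronan, did not pass the test (log2 fold change -0.28 ± 0.67, adjusted p = 0.731). Its NRC was 5040 and 1796 in neoSF and 5053, 2613, 1991 and 821.1 in monoiPSC. MATN1 and MATN3, matrilins of cartilage, stayed under an NRC of 20 in every library and were not tested.

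The 8 other matrix genes found that missed the expression filter had no common direction between the neoSF cultures, and those named here besides MATN1 and MATN3 were chosen after their values were seen. MGP (matrix Gla protein), an inhibitor of mineralization, had NRCs of 3041 and 19.5 in FD2M1 and LSD1 neoSF, a 159-fold ratio (counting interval 90.5 to 307.5), and 1.05 to 20.1 in monoiPSC. CILP, a protein of the intermediate layer of cartilage, had the opposite order, with 3.90 and 37.3 (ratio 0.102, counting interval 0.0117 to 0.41). MATN3 had 12.7 and 15.8, and CYTL1 71.2 and 0. THBS4, a paralog of COMP that also missed the filter, had 599.8 and 17.4.

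Of 7 tested paralogs of the matrix members, 4 were called lower and 2 higher. The thrombospondins THBS1 and THBS2, which share the family of COMP, had log2 fold changes of -5.61 and -12.15 (edgeR adjusted p = 0.000115 and 3.35e-05). THBS2 had NRCs of 207923 and 225379 in neoSF and 12.4 to 90.99 in monoiPSC. NCAN (neurocan), the brain relative of aggrecan, rose by 4.07 ± 0.88 (adjusted p = 0.00541), from 5.85 and 66.1 to between 363.9 and 1084.

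All 14 other chondrogenic transcription factors tested were called, 12 lower and 2 higher. RUNX2, the regulator of hypertrophy and bone, fell by 4.75 ± 0.24 on the log2 scale (adjusted p = 1.53e-05) with a neoSF ratio of 1.09. PAX1 and PAX9, factors of the sclerotome, from which vertebral cartilage forms, had log2 fold changes of -4.88 and -6.74 (adjusted p = 0.00697 and 0.00182). Both had a neoSF ratio of the same order as SOX9, with PAX1 at 1879 in FD2M1 and 131.3 in LSD1 neoSF and PAX9 at 473.6 and 38.0. SOX8, a SOXE paralog of SOX9, fell by 1.02 ± 0.22 (adjusted p = 0.00493) with even neoSF levels of 2920 and 2839. SOX13, the remaining SOXD gene beside SOX5 and SOX6, rose by 1.45 ± 0.20 (adjusted p = 0.00074), in the direction seen for SOX5. Without FD2M1 neoSF the number of lower factors was 7, and PAX1 was no longer called (adjusted p = 0.158).

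Of 5 growth plate and joint signalling genes tested, 3 were called lower and 1 higher. PTH1R, the receptor for parathyroid hormone-related protein, fell by 2.22 ± 0.30 (adjusted p = 0.000655), and NPR2, the receptor for C-type natriuretic peptide, fell by 1.70 ± 0.23 (adjusted p = 0.000629). NPPC, which codes for that peptide, was called higher (adjusted p = 0.000389), with NRCs of 0 and 1.58 in neoSF and 181.9 to 568.5 in monoiPSC.

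Of 6 proteases that act on aggrecan or cartilage matrix, 4 were called lower. HTRA1 fell by 5.49 ± 0.82 (adjusted p = 0.000977), ADAMTS12 by 3.10 ± 0.34 (adjusted p = 0.000247) and the collagenase MMP13 by 5.32 ± 1.44 (adjusted p = 0.014). MMP13 had NRCs of 484.4 and 30.1 in neoSF, and lost its call without FD2M1 neoSF (adjusted p = 0.283) and by DESeq2 (adjusted p = 0.0571).

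Chondroitin sulfate synthesis, which builds the sugar chains carried by aggrecan, had 12 of 18 tested genes called lower and 1 higher. The sulfotransferases CHST13 and CHST15 and the chain polymerase CHSY1 had the largest falls, with log2 fold changes of -3.58 ± 0.26, -3.32 ± 0.48 and -3.47 ± 0.33 (edgeR adjusted p = 4.26e-05, 0.000849 and 0.000126). These enzymes did not follow ACAN between the neoSF cultures, where FD2M1 had 0.519, 0.333 and 0.790 times the LSD1 level.

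Over all 58 tested genes of these lists, FD2M1 neoSF was at least 2-fold above LSD1 neoSF for 15 (background 8.30%) and at least 10-fold for 4, EPYC, PAX1, PAX9 and MMP13 (background 1.60%). LSD1 neoSF was at least 2-fold above for 5 (background 8.89%). The median log2 ratio was 0.29. The term for a strain difference in the change was called for none of the 58 by edgeR (background 0.0841%). DESeq2 called it for 1, FOXC1 (background 2.33%). By edgeR, 7 of the 58 had an unadjusted p under 0.05, against 1193 of all 13072 tested genes.

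**Figure D5:**
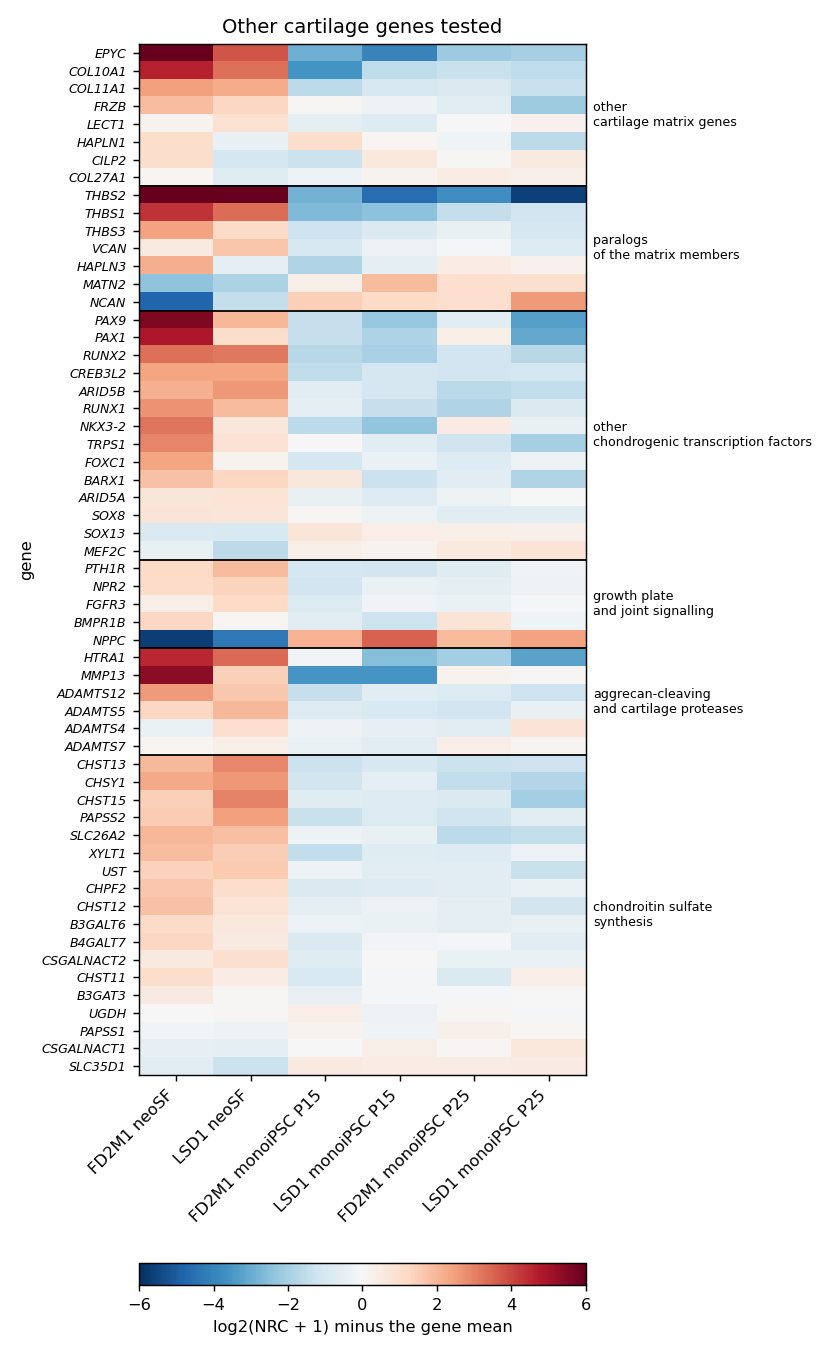
Log2(NRC + 1) minus the mean of the gene over the 6 libraries, for the 58 tested genes of the other cartilage lists, grouped by list and ordered by fold change within it. Red is above and blue below the gene mean, colours are capped at 6 in both directions, and most rows are red in both neoSF columns, with EPYC, PAX9, PAX1 and MMP13 darker in FD2M1.

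Markers of other cell types that a skin culture could hold were read in the same libraries. The summed NRC of 4 osteoblast markers found was 3938 in FD2M1 neoSF and 5621 in LSD1 neoSF, with 4 and 2 of them above the floor, and 148 to 368 in monoiPSC. ALPL, with 2955 and 5480, carried that sum in neoSF. The other 3 markers were higher in FD2M1 neoSF, as the ACAN and collagen IX levels were, with IBSP at 772.0 and 137.5, BGLAP at 37.7 and 1.58 and DMP1 at 173.6 and 1.58. The sum of 2 tendon markers was 1071 and 944 in neoSF and 90.5 to 255.5 in monoiPSC, although the mature tendon marker TNMD alone was at 296.9 in FD2M1 and 5.81 in LSD1 neoSF and at 0 in monoiPSC. Endothelial markers summed to 216.6 and 52.3 in neoSF, of which KDR alone gave 210.4 and 28.8, with CDH5 at 0 in both neoSF libraries. Their sum in monoiPSC was 66.8 to 139.9. In monoiPSC, where SOX5, SOX9 and the collagen IX genes were also present, 7 neural progenitor and glial markers summed to 8049 to 13006 (82.7 and 52.7 in neoSF), of which FABP7 alone gave 7748 to 12579. OLIG2 was at 3.65 to 13.8 and GFAP at 0 to 4.12 there. The sum of 5 melanocyte markers was 4604 to 15571 (256.7 and 406.8 in neoSF), of which DCT alone gave 4372 to 15279. MITF did not pass the test, with 221.7 to 338.2 in monoiPSC and 223.2 and 382.0 in neoSF, and TYR was at 2.06 to 6.73 in monoiPSC. The part of any of these cell types in the members' levels was not tested.

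The genes whose profile lay nearest to SOX9, by the Euclidean distance of centred log2 values over the 6 libraries, were MSX2 (distance 0.78), BACE2 (1.09), EPHA7 (1.09), ZNF536 (1.13) and PPP2R2D (1.15). MSX2, a homeobox factor of limb and skull, had NRCs of 456.3 and 45.8 in neoSF and 46.4 to 72.3 in monoiPSC. Nearest to ACAN were EPYC (1.95), MEPE (2.24), TBX18 (2.28), FBLN7 (2.46) and SPP1 (2.47). SPP1 (osteopontin) had NRCs of 27690 and 3337 in neoSF and 5.89 to 25.8 in monoiPSC, and MEPE, a phosphoglycoprotein of bone, had 550.5 and 42.8 in neoSF and 0 in all monoiPSC libraries. Among the members, MATN4 ranked 10 by its distance to ACAN (2.75) over all tested genes, and SOX6 ranked 28 by its distance to SOX9 (1.56). The other members ranked 9417 (COL11A2) to 13030 (COMP) by distance to SOX9. By distance to ACAN, COMP ranked 344, SOX6 800 and SOX9 1420, and the rest ranked 10760 (COL11A2) to 12109 (COL9A1). The distances are a description over 6 libraries that share strains and lines.

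In the RefSeq annotation of assembly mMonDom1.pri, 9 of the 10 genes were matched by gene number. COL9A3 overlaps the protein-coding gene TCFL5 and MATN4 overlaps RBPJL there, and SOX5 and SOX6 each overlap a lncRNA gene. Whether the counting used the strand is not clear from the sources used here, so reads in these overlaps cannot be told apart.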

How the data were processed

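Poly-A RNASeq was analysed for 2 neoSF and 4 monoiPSC libraries. The authors aligned reads to MonDom5 and counted them on RefSeq genes with StrandNGS. The deposited counts are named raw, yet 87.1% of those above 0 are not whole, so that they are estimated counts, which were rounded here before any count test. A further deposited table holds DESeq-normalized log2 values. An NRC here is the deposited count multiplied by a factor for its library, taken from those values. It has no floor, so that it can be 0. No deposited column was left unused (0 columns). The gene symbols and MonDom5 chromosomes come from the deposited tables, which were searched for each member and list gene by exact symbol.

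Differences were fitted with edgeR 4.0.16 (R 4.3.3), TMM scaling, the quasi-likelihood test and Benjamini-Hochberg adjustment over all tested genes, with calls at the study's limits of 0.05 for the adjusted p and 2-fold for the change. An SE given for edgeR is the absolute log2 fold change divided by the square root of the quasi-likelihood F statistic. Only genes that reached an NRC of 20 throughout a group were tested. Ratios between the neoSF strains are ratios of rounded, TMM-scaled counts with exact 95% binomial intervals, which cover counting error only. The scripts were tested on simulated counts with 200 genes changed 4-fold. Alternatives were RLE scaling, DESeq2 1.42.0, limma 3.58.1 on the deposited log2 values, no expression filter, strain as a replicate block, and each library left out.

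The strain ties each line to its neoSF culture, and the block was fitted for that reason. Strain differences of the neoSF and monoiPSC libraries correlated across genes with r = 0.0712 at passage 15 and -0.0032 at passage 25.

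The members, the lists and the tests were chosen with earlier results of these data known. Named from each list were the 3 called genes with the largest fold change, with COL2A1, COL11A1, HAPLN1, MATN1, MATN3, SOX8, SOX10, SOX13 and RUNX2 whatever their values, and the 5 genes nearest to SOX9 and to ACAN.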

Additional observations from a re-analysis of the deposited data

Results flagged for a closer look

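For SOX9 and the collagen IX genes the change from neoSF to monoiPSC differed between the strains, which is given here without a call. The log2 change in LSD1 minus that in FD2M1 was 3.93 ± 0.29 (SE) for SOX9, 8.11 ± 0.40 for COL9A1, 4.96 ± 0.34 for COL9A2 and 7.21 ± 0.55 for COL9A3. For COL9A1 the DESeq2 SE was larger, at 0.92. The genes were chosen with these libraries known, so the values are a description of the neoSF difference already given and no separate result, and each rests on 1 neoSF library a strain.

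In the monoiPSC libraries, the NRC of CHST13 was 344.2 in LSD1 at passage 15, apart from the other 3, which lay between 270.4 and 282.7. The NRC of CHST15 was 161.3 in LSD1 at passage 25, and 369.6 to 406.9 in the others. Both stood out by Dixon's criterion for 4 samples, which marks about 1 in 20 groups by chance, or 1.65 of the 33 genes checked.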

How the results depend on the processing

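The number of genes called between neoSF and monoiPSC was 6000, and 5973 to 6780 under the alternatives. Leaving out 1 library gave 5672 to 5920, and where 1 neoSF library was left, it was assumed to vary like the monoiPSC libraries. Leave-one-out ranges crossed 0 for SOX9 (-3.05 to 0.59), COL9A1 (-0.30 to 8.44), COL9A3 (-0.22 to 6.80) and HAPLN1 (-0.84 to 0.64), in each case by leaving out a neoSF library. The passage difference of SOX6 turned to -0.013 with no replicate block. DESeq2 called 115 genes between passages, 192 between lines and 304 for the strain term (chosen after seeing the data), where edgeR called 0, 0 and 11. The cause was not tested. On the deposited log2 values limma, which averages logs, gave 3.88 for COL9A1, 3.25 for COL9A2 and 3.17 for COL9A3. With strain as a replicate block 6012 genes were called. Without the expression filter 8 other cartilage matrix genes were lower and 1 higher. SOX8 fell under the 2-fold limit without the FD2M1 (-0.94) or LSD1 (-0.95) passage 25 library. Of 660 alternative values, 624 kept their direction and their side of the threshold or stayed within the spread, 26 moved further, 5 lost their call and 5 changed sign. Leaving out 1 of the 4 monoiPSC libraries could not be fitted for passages or lines with the covariate kept. The neoSF libraries were the shallowest, and the smallest counts behind a member were those of COL9A1 in LSD1 neoSF (3.33).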

Other observations

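Of the 13072 tested genes, 7 outside the members were called for a different change in the strains (edgeR, log2 terms of 3.12 to 12.94, adjusted p of 0.03 to 0.0484). They are SFRP1 and FZD9, a WNT antagonist and a WNT receptor, the neurotrophin receptor NGFR, the developmental regulators MAB21L2 and ZIC2, ITGBL1 and RARRES2. They were named after their values were seen. In every case FD2M1 neoSF was higher than LSD1 neoSF, which largely follows from the positive sign of their terms. The neoSF NRCs were 1205 and 38.8 for SFRP1, 1037 and 74.4 for FZD9, 158.4 and 1.58 for NGFR and 477.2 and 3.17 for MAB21L2. ITGBL1, which codes for a secreted integrin-like protein, had 10364 and 1981 in neoSF and 42.4 to 75.97 in monoiPSC, so that, as for ACAN and MATN4, both neoSF libraries lay above all monoiPSC libraries. The order was the opposite for SFRP1, FZD9, NGFR, MAB21L2 and ZIC2, whose monoiPSC libraries all lay above both neoSF libraries. Their monoiPSC NRCs were 2191 to 5723, 1718 to 2542, 7780 to 18410, 3230 to 5323 and 5051 to 8537. For RARRES2 the cell types overlapped, with 2830 and 527.5 in neoSF. Its monoiPSC NRCs were 266.7 and 219.0 in the FD2M1 line and 835.7 and 894.4 in the LSD1 line. ZIC2, with 524 and 0.79 in neoSF, rests on less than 1 count in LSD1 neoSF.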
